A study of Caenorhabditis elegans with 48 samples.

Results

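The genes described here are the insulin-like peptide genes of the nematode Caenorhabditis elegans. They were taken by name, as every gene whose symbol is ins followed by a number, together with daf-28, which was named for its mutant phenotype before its product was known to be an insulin. This gave 40 of the 44968 genes in the count tables, of which 39 are annotated as protein coding and 1, ins-38, as a pseudogene. Insulin-like peptides are small secreted hormones made mostly in neurons and in the intestine. They act on a single known insulin receptor, DAF-2, which signals through the phosphoinositide 3-kinase AGE-1 and the AKT kinases to keep the FoxO transcription factor DAF-16 out of the nucleus. Some of the peptides activate the receptor (agonists) and others oppose it (antagonists), and in larvae without food low receptor activity and active DAF-16 are needed for arrest and survival.

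The study sampled whole animals of the wild type N2 that had been kept at 20°C in S-basal buffer without food since they were embryos, so that larval development stopped after hatching in the L1 stage (L1 arrest). All samples share that genotype and that treatment, there was no fed group, and the groups are labelled by time. Sampling began 2 h before the nominal hatch (-2 h), went on every 2 h from 0 to 6 h and at 9 and 12 h, and then at 24, 48, 96, 192 and 288 h, and each time point has a library of each of replicates 1, 5, 6 and 8. The -2 h samples are labelled as L1 larvae although they precede the nominal hatch, and by the methods 0 h marks the time at which hatching begins, so 0 h samples mix hatched and unhatched animals. At 192 and 288 h more larvae were collected to allow for deaths, so those groups also differ in input and in the share of dead larvae, whose part in the late results was not tested. In whole-animal RNA, fewer cells of a type and less RNA per cell cannot be told apart.

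Libraries held 10164115 to 15962842 counts in genes, of which 717 to 7540 fell in the 40 insulin-like genes. Genes annotated as ribosomal RNA took a median of 2.998% of the counts, but 46.4% in the -2 h library of replicate 6 and 27.4% in the 24 h library of replicate 8, and the next highest share was 9.31%. Tissue markers moved late in the series. The summed level of 6 body wall muscle markers was 16132 CPM (counts scaled to library size) at 24 h, 4061 CPM at 192 h and 964 CPM at 288 h, that of 8 intestine markers was 2883, 1186 and 454 CPM, and that of 10 neuron markers was 1499, 1860 and 1602 CPM. Every gene of these 3 lists had counts in all 48 libraries. CPM are relative levels. The paper reports, from other strains, that total RNA per larva fell late in starvation. A higher CPM late in the series therefore need not mean more transcript per larva.

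Levels differed widely within the family. A gene was tested if it exceeded 1 CPM in at least 4 libraries. In the family 25 of the 40 genes did, a larger share than the 16987 of all 44968 genes. The other 15 (ins-7, ins-8, ins-9, ins-12, ins-13, ins-15, ins-16, ins-19, ins-21, ins-23, ins-31, ins-32, ins-33, ins-36 and ins-38) never reached a mean of 1 CPM at any time point, and none of them had more than 227 counts over the 48 libraries together or more than 19 in a single library. They include ins-7, an agonist made in the intestine and in neurons, and ins-33, which promotes germ cell proliferation in fed larvae. With ins-37 and ins-39, which passed the filter, 17 genes stayed under a mean of 1 CPM throughout, with highest means of 0.125 to 0.90 CPM. No gene of the family was without a count in every library, so these are low levels at this depth and not shown to be absent. At the other end, 12 genes averaged at least 10 CPM at some time and 3 of them at least 100 CPM, namely ins-17, ins-1 and ins-20. How many of all genes lie in these ranges was not counted, so such levels are not shown to be particular to the family.

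**Figure D1:**
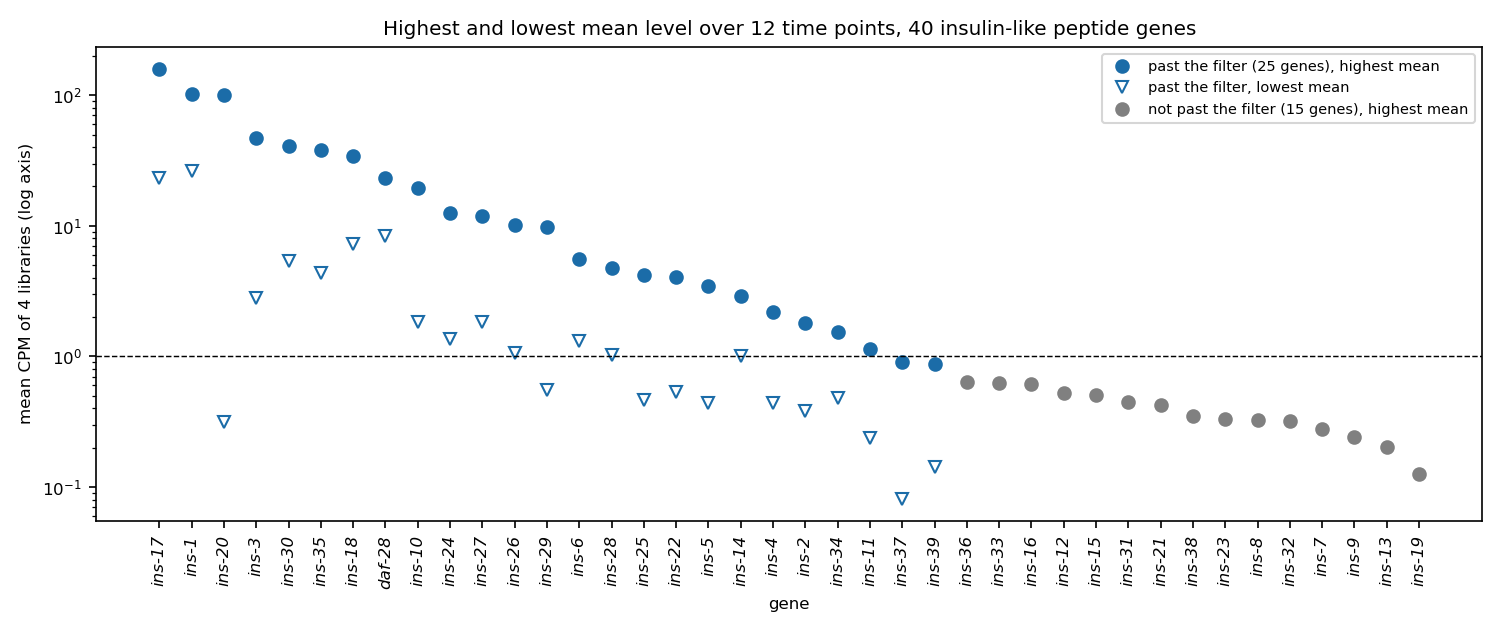
Highest and lowest of the 12 mean levels (CPM on a log axis, means of 4 libraries) for each of the 40 insulin-like peptide genes, ordered by the highest mean. Filled blue circles and open triangles show the 25 genes tested, grey circles the highest mean of the 15 genes that did not pass the filter, and the dashed line marks 1 CPM. The widest gap between highest and lowest mean is that of ins-20, 100.2 CPM at 192 h and 0.313 CPM at 0 h.

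Levels of different genes can be set beside each other only after division by exon length. Averaged over all 48 libraries, ins-17 had 162 CPM per kb, followed by ins-1 with 56.4, ins-35 with 54.4, ins-20 with 43.3, ins-18 with 37.2 and ins-30 with 33.4 CPM per kb. The order shifted with time. At -2 h, ins-17 and ins-1 were close, with 41.6 and 36.8 CPM per kb. At 24 h, ins-17 had 186 CPM per kb and ins-35 was next with 100.5. At 192 h, ins-17 had 288 ± 32.4 and ins-20 had 233.5 ± 66.9 CPM per kb (SD, n = 4), and their libraries overlapped although ins-17 was the higher of the pair in 4 of 4 replicates. ins-1 followed with 117 ± 16.7.

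Whether a gene changed at any of the 12 time points was asked with the likelihood ratio test of edgeR. Of the 25 genes tested, 23 passed at an adjusted p (FDR) of 0.05, read against a background of 84.9% of all genes tested. The smallest values were those of ins-20 (edgeR FDR 5.9e-287), ins-3 (1.56e-160), ins-17 (2.47e-153) and ins-1 (7.43e-141). The 2 genes that did not pass were ins-34 (edgeR FDR 0.459) and ins-37 (edgeR FDR 0.250). The time of the highest mean differed among the 25 genes. It was 288 h for 9 of them (36% of the 25, against 21.7% of all genes tested) and 192 h for 4 (16%, against 10.6%). The other 12 had their highest mean between -2 and 48 h, with 1 at -2 h (4%, against 21.66%). Those at 288 h include ins-34, which did not pass the test, and ins-2 and ins-39, whose highest means were 1.81 and 0.868 CPM. For genes as low as these the time of the highest mean is uncertain.

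**Figure D2:**
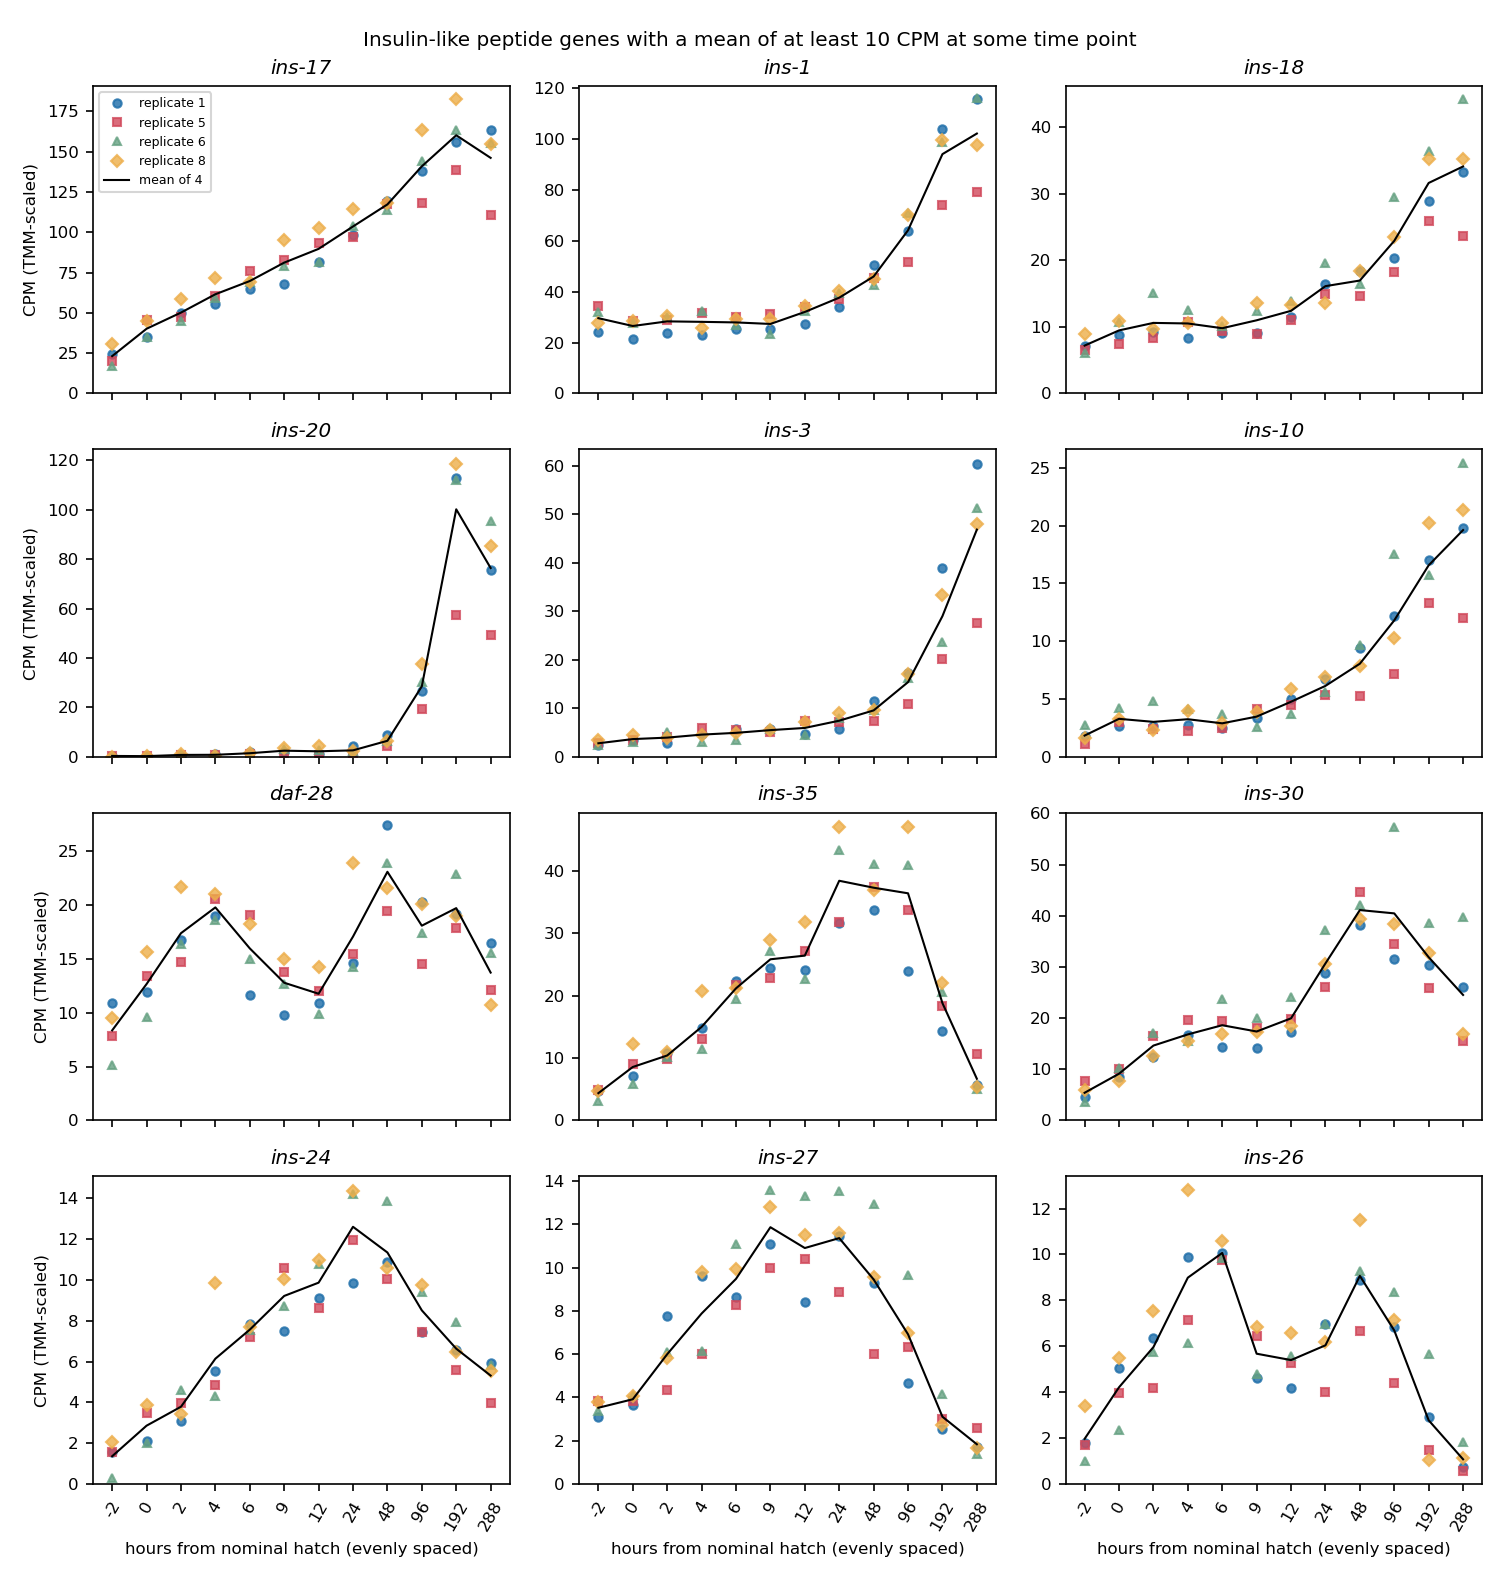
CPM of the 12 insulin-like peptide genes that averaged at least 10 CPM at some time, by hours from nominal hatch (evenly spaced). Points are single libraries and lines join the means of 4. ins-17 and ins-1 were highest at 192 and 288 h, ins-35 at 24 h (at 48 h without replicate 8), and ins-26 had separate maxima of 10.1 CPM at 6 h and 9.06 CPM at 48 h.

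The 3 antagonists had their highest means at 192 or 288 h. ins-17 and ins-18 oppose DAF-2 in dauer formation, the alternative larval arrest, and ins-1 is a neuronal peptide known for its part in learned behaviour. The mean level of ins-17 was 23.2 CPM at -2 h and was larger at each time point through 192 h, with 40.1 at 0 h, 89.7 at 12 h, 103.6 at 24 h and 160 at 192 h, and was 146 CPM at 288 h. ins-1 stayed between 26.5 and 32.0 CPM from -2 to 12 h and then reached 37.6 CPM at 24 h, 64.1 at 96 h, 94.0 at 192 h and 102 at 288 h. ins-18 had 7.19 CPM at -2 h, 12.4 at 12 h, 16.1 at 24 h and 34.1 at 288 h. The mean of ins-17 thus grew from before hatch onwards, whereas that of ins-1 left its early range only at 24 h.

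Among the agonists, the patterns over time differed from gene to gene. The neuronal agonist daf-28, whose dominant mutation makes larvae enter dauer, had 8.36 CPM at -2 h, 19.8 at 4 h, 11.8 at 12 h, 23.1 at 48 h and 13.7 at 288 h, so its mean passed through a maximum both early and at 48 h. ins-35, which is made in the intestine, had 4.36 CPM at -2 h, 38.4 at 24 h, 36.4 at 96 h and 6.67 at 288 h. ins-6, a neuronal agonist that promotes exit from dauer, had 5.60 CPM at -2 h, 1.31 at 12 h and 3.20 at 192 h. ins-4, which like daf-28 and ins-6 restrains dauer entry, never averaged more than 2.18 CPM, its value at 2 h. ins-3, which promotes proliferation of larval germ cells, had a larger mean at each successive time point, with 2.81 CPM at -2 h, 7.47 at 24 h and 46.9 ± 13.9 at 288 h (SD, n = 4).

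Around the onset of hatching the calls were upward. At 0 h against -2 h, 8 of the 25 genes were higher and 0 lower by the edgeR quasi-likelihood test at an FDR of 0.05. The background was 23.8% of all genes tested, 11.5% higher and 12.3% lower. At an unadjusted p under 0.05 the same test gave 12 higher and 0 lower, and DESeq2 gave 8 and 0. The median log2 fold change was 0.50 over the 25 genes and 0.034 over all genes tested.

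The gene with the smallest FDR in that comparison was ins-17. It had 35.3, 45.5, 35.02 and 44.7 CPM at 0 h in replicates 1, 5, 6 and 8, against 24.2, 20.4, 17.1 and 30.99 CPM at -2 h. The time points did not overlap, and the log2 fold change was 0.78 (SE 0.14, edgeR FDR 2.8e-05). ins-35 had 7.16, 9.01, 5.86 and 12.2 CPM at 0 h, against 4.78, 4.85, 3.08 and 4.73 CPM at -2 h, again without overlap (log2 fold change 0.95, SE 0.23, edgeR FDR 0.0017). ins-17 and ins-35 were the 2 genes whose call held under every alternative tried. The others called were ins-24 (log2 fold change 0.99), ins-29 (1.29, higher in 3 of 4 replicates), ins-30 (0.72), ins-10 (0.89), daf-28 (0.58) and ins-26 (1.05).

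These 6 calls were each lost when some single replicates were left out. The call of ins-24 was lost without replicate 5, that of ins-26 without replicate 1 or 5, that of ins-10 without 1, 5 or 8, that of ins-30 without 1, 6 or 8, and those of daf-28 and ins-29 without 5, 6 or 8. Leaving out the 2 libraries rich in ribosomal RNA, 1 of them at -2 h, ended the calls of daf-28, ins-26 and ins-30 and left 5 genes called. The fit of the 2 time points alone ended those of ins-10, ins-24, ins-26, ins-29 and daf-28. With the replicate number as a block 11 genes were called, the additions being ins-18 (edgeR FDR 0.0463 with the block, 0.144 without), ins-28 (0.0426 and 0.0609) and ins-5 (0.0429 and 0.0719). In the same comparison, 4 of 6 muscle markers and 3 of 8 intestine markers were higher and 0 of 10 neuron markers were called. Summed muscle markers were 15161 CPM at 0 h and 10915 CPM at -2 h, and their part in these results was not tested.

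Between 0 and 12 h the family moved in both directions. At 12 h against 0 h, 10 genes were higher and 4 lower by the edgeR quasi-likelihood test, 14 of 25 where 45.4% of all genes tested were called (22.2% higher, 23.3% lower). In all 14 the 4 replicates moved in 1 direction, and 12 of the genes did not overlap between the time points, where 38.7% of all genes tested were both called and without overlap. The median log2 fold change was 0.53 over the 25 genes and -0.018 over all genes tested. Of the 10 genes that were higher, 6 belong to a single run of neighbours on chromosome I, with other coding genes between some of them.

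Among the higher genes, the antagonist ins-17 had the highest level per kb of exon at 12 h, 161 CPM per kb. It had 81.4, 93.3, 81.7 and 102.5 CPM at 12 h in replicates 1, 5, 6 and 8, against 35.3, 45.5, 35.02 and 44.7 CPM at 0 h (log2 fold change 1.16, SE 0.13, edgeR FDR 6.57e-10). The intestinal agonist ins-35 had 24.0, 27.1, 22.7 and 31.8 CPM at 12 h, against 7.16, 9.01, 5.86 and 12.2 CPM at 0 h (log2 fold change 1.62, SE 0.20, edgeR FDR 6.8e-09). In both genes the lowest library at 12 h lay well above the highest at 0 h. ins-24 had 9.09, 8.64, 10.8 and 10.97 CPM at 12 h, against 2.11, 3.45, 2.00 and 3.85 CPM at 0 h, with a fold change on the log2 scale of 1.78 (SE 0.24, edgeR FDR 2.07e-08). ins-27 had 8.43, 10.4, 13.3 and 11.5 CPM at 12 h, against 3.65, 3.83, 4.13 and 4.04 CPM at 0 h, where its 4 libraries were close to each other (log2 fold change 1.48, SE 0.22, edgeR FDR 1.78e-07).

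ins-20 was barely detected at this stage, with 3 to 7 counts per library at 0 h. It had 1.20, 0.806, 2.68 and 4.40 CPM at 12 h in replicates 1, 5, 6 and 8, against 0.491, 0.370, 0.200 and 0.190 CPM at 0 h (log2 fold change 2.82, SE 0.53, edgeR FDR 1.89e-05). Replicates 6 and 8 were the highest at 12 h and the lowest at 0 h, so the size of the change differed among replicates. The other higher genes were ins-29 (log2 fold change 1.81), ins-25 (1.62), ins-30 (1.13), ins-28 (1.02) and ins-3 (0.69), and ins-3 overlapped between the time points.

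The 4 lower genes were ins-6, ins-5, ins-4 and ins-22. The neuronal agonist ins-6 had 1.13, 0.659, 1.00 and 2.46 CPM at 12 h in replicates 1, 5, 6 and 8, against 4.14, 5.86, 5.99 and 5.62 CPM at 0 h (log2 fold change -2.04, SE 0.28, edgeR FDR 5.94e-08). Its call held under every alternative in which it was tested, as did that of its chromosomal neighbour ins-5 (log2 fold change -1.38, SE 0.38, edgeR FDR 0.00263). ins-4 had a log2 fold change of -1.55 (edgeR FDR 0.00941), which was lost without replicate 6 or 8. For ins-22, whose tagged product serves as a marker of neuropeptide release, it was -0.85 with overlap between the time points (edgeR FDR 0.0321), and the call was lost without replicate 1, 5 or 6 and when no filter was used.

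Of the higher genes, ins-28 lost its call without replicate 6 and ins-3 without replicate 8. The calls of the other 8 held under every alternative in which the gene was tested. With the replicate block 16 genes were called, the additions being ins-10 (log2 fold change 0.53, edgeR FDR 0.0325 with the block, 0.0942 without) and ins-18 (0.39, edgeR FDR 0.0103 and 0.0771). Over the same interval 4 of 10 neuron markers were lower and 0 higher, and of 8 intestine markers 4 were higher and 4 lower. The part of these shifts in the results for the insulin-like genes was not tested.

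Between 12 and 24 h few genes of the family passed the test, although most fold changes were positive. At 24 h against 12 h, 1 gene was called higher and 0 lower by the edgeR quasi-likelihood test, where 9.54% of all genes tested were called (4.26% higher, 5.29% lower). At an unadjusted p under 0.05 there were 6 higher and 1 lower, and DESeq2 called 3 higher and 0 lower. The log2 fold change was positive for 21 of the 25 genes, with a median of 0.27 over them and 0.016 over all genes tested. The gene was ins-30, with 28.9, 26.1, 37.1 and 30.6 CPM at 24 h in replicates 1, 5, 6 and 8, against 17.3, 19.9, 24.1 and 18.5 CPM at 12 h (log2 fold change 0.62, SE 0.21, edgeR FDR 0.0457). The groups did not overlap, but the call was lost without replicate 1, 5 or 8, without the 2 libraries rich in ribosomal RNA and without scaling factors. With the replicate block 4 genes were called, and these added ins-35 (log2 fold change 0.54, edgeR FDR 0.0183 with the block, 0.0704 without), ins-18 (0.38, 0.0358 and 0.208) and daf-28 (0.53, 0.0308 and 0.0636).

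Long starvation was examined as 192 h against 24 h, a comparison that shares no library with that of 12 h against 0 h. They are still not independent, since both come from a single fit and most replicates were sampled from a single culture over time. At 192 h against 24 h, 8 genes were higher and 6 lower by the edgeR quasi-likelihood test. That is 14 of 25, where 39.7% of all genes tested were called (19.4% higher, 20.3% lower). The 4 replicates again moved in 1 direction in all 14, and 11 of the genes did not overlap, where 33.7% of all genes tested were both called and without overlap. The median log2 fold change was 0.16 over the 25 genes and -0.054 over all genes tested.

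The change of ins-20 was the largest of the family. It had 113, 57.4, 112 and 118.5 CPM at 192 h in replicates 1, 5, 6 and 8, against 4.56, 1.42, 2.22 and 2.42 CPM at 24 h (log2 fold change 5.24, SE 0.34, edgeR FDR 9.16e-17). The lowest library at 192 h, that of replicate 5, was still far above the highest at 24 h. In between, ins-20 averaged 6.52 CPM at 48 h and 28.6 CPM at 96 h, and at 288 h it averaged 76.5 ± 19.7 CPM (SD, n = 4). Its share of the summed CPM of the family was 18.4% at 192 h and 0.841% at 24 h.

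**Figure D3:**
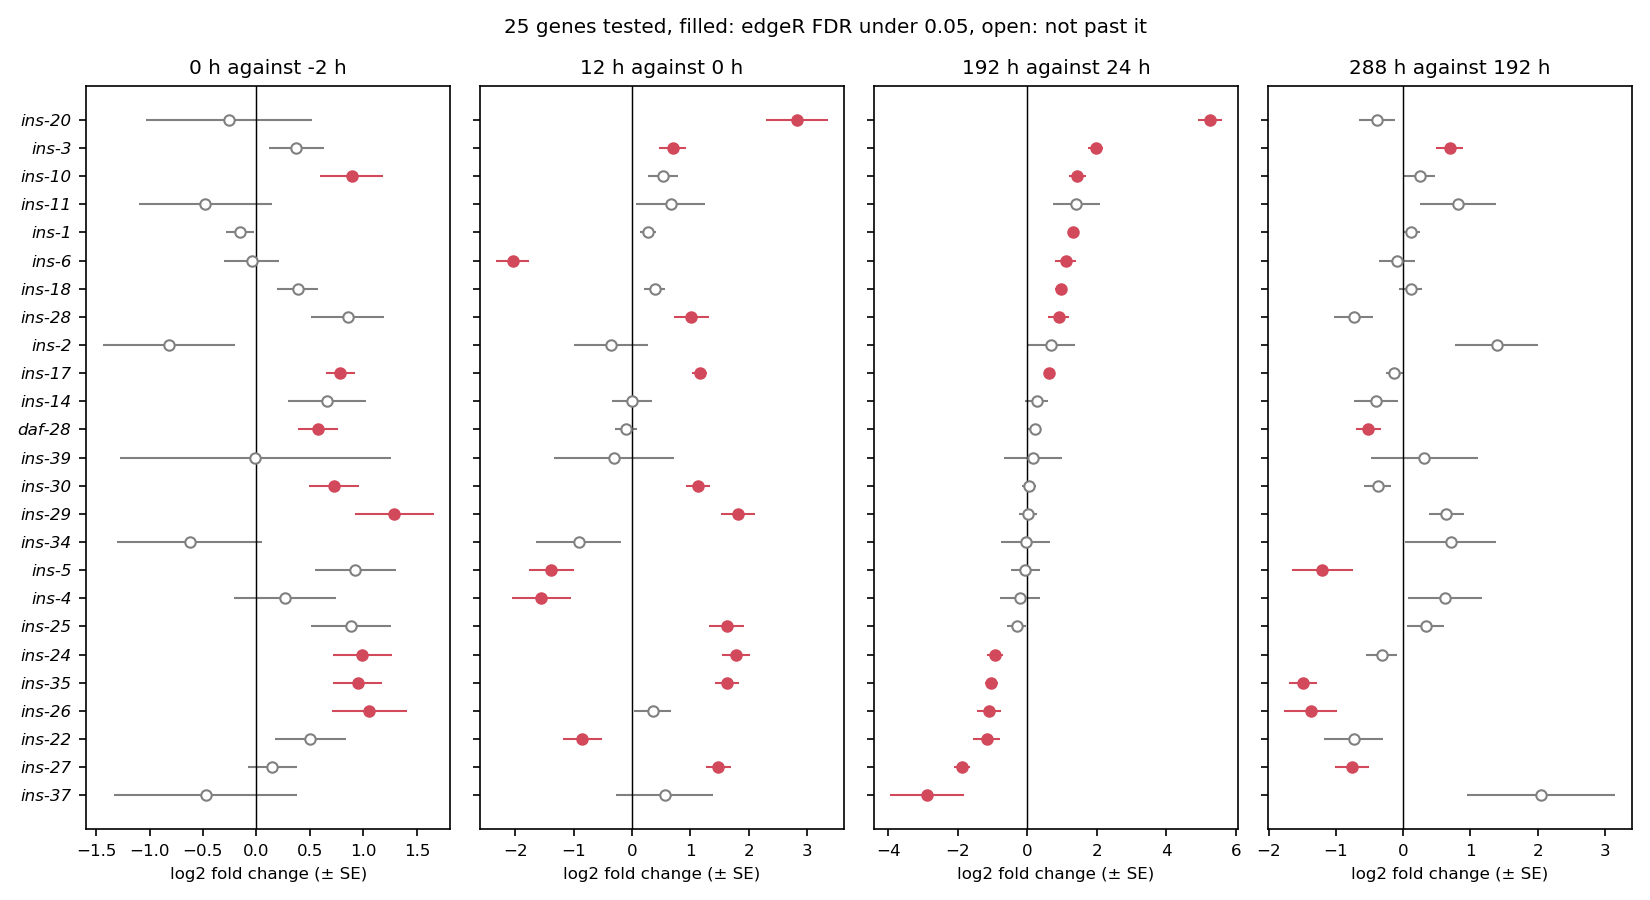
log2 fold changes of the 25 insulin-like peptide genes tested (edgeR fit of all 48 libraries, SE bars) in 4 of the 5 comparisons, 1 panel each (that of 24 h against 12 h is not drawn), each on its own scale, with genes ordered by the values at 192 h against 24 h. Filled symbols passed an FDR of 0.05. ins-20 had 2.82 at 12 h against 0 h and 5.24 at 192 h against 24 h, whereas ins-24, ins-27 and ins-35 were above 0 at 12 h against 0 h and below 0 at 192 h against 24 h.

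All 3 antagonists had a higher CPM, which is a relative level, at 192 h than at 24 h. ins-1 had 103.8, 74.2, 98.6 and 99.4 CPM at 192 h in replicates 1, 5, 6 and 8, against 33.8, 37.0, 39.3 and 40.4 CPM at 24 h (log2 fold change 1.32, SE 0.13, edgeR FDR 2.45e-11). ins-18 had 28.9, 25.9, 36.5 and 35.3 CPM at 192 h, against 16.4, 14.99, 19.6 and 13.5 CPM at 24 h (log2 fold change 0.97, SE 0.18, edgeR FDR 1.59e-05). ins-17 had 156, 139, 163 and 182.5 CPM at 192 h, against 98.5, 97.3, 104.2 and 114 CPM at 24 h (log2 fold change 0.63, SE 0.13, edgeR FDR 9.89e-05). None of the 3 overlapped between the time points, and the 3 calls held under every alternative tried.

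Of the other genes that were higher, ins-3, which had been higher at 12 h as well, had 38.9, 20.3, 23.7 and 33.3 CPM at 192 h in replicates 1, 5, 6 and 8, against 5.77, 7.12, 7.92 and 9.06 CPM at 24 h (log2 fold change 1.96, SE 0.22, edgeR FDR 5.64e-10). ins-10 had 17.03, 13.3, 15.7 and 20.3 CPM at 192 h, against 6.71, 5.36, 5.62 and 6.89 CPM at 24 h (log2 fold change 1.43, SE 0.25, edgeR FDR 6.2e-06). An exon of ins-10 overlaps vps-39 on the other strand, and since the strand setting of the counting is not stated, reads of the 2 genes may be mixed. The agonist ins-6, lower at 12 h, was higher at 192 h than at 24 h with a log2 fold change of 1.10 (edgeR FDR 0.00219), which was lost without replicate 6. ins-28 had a log2 fold change of 0.90 (edgeR FDR 0.0134), which was lost without replicate 1 or 5.

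The genes that were lower included 3 that had been higher at 12 h. ins-35 had 14.3, 18.3, 20.6 and 21.95 CPM at 192 h in replicates 1, 5, 6 and 8, against 31.6, 31.7, 43.3 and 47.0 CPM at 24 h (log2 fold change -1.03, SE 0.20, edgeR FDR 3.1e-05). ins-27 had 2.53, 2.99, 4.17 and 2.72 CPM at 192 h, against 11.5, 8.88, 13.5 and 11.6 CPM at 24 h (log2 fold change -1.87, SE 0.23, edgeR FDR 3.1e-09). ins-24 had 6.55, 5.56, 7.94 and 6.47 CPM at 192 h, against 9.87, 12.0, 14.2 and 14.4 CPM at 24 h (log2 fold change -0.92, SE 0.22, edgeR FDR 0.000772). In each of the 3 every library at 192 h was below every library at 24 h, and the calls held under every alternative in which the gene was tested.

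The calls of the remaining lower genes were lost when some single replicates were left out. ins-26 (log2 fold change -1.11, edgeR FDR 0.00709) lost its call without replicate 1 or 8, and ins-22 (-1.17, edgeR FDR 0.0126) without replicate 1. ins-37 had at most 2 counts in any library at 192 h. With a floor of 3 counts per library, its mean there was at least 2.68-fold below its mean at 24 h (edgeR FDR 0.0273). At 24 h it had 1.77, 0.251, 0.170 and 0.483 CPM in replicates 1, 5, 6 and 8, from 19, 3, 2 and 4 counts. Replicate 1 stood apart and the others were at or near the floor, so the bound holds for the means only. The call was lost without replicate 1 or 8. The median over the 25 genes was 0.16 with ins-37 at that bound as well. Exons of ins-37 overlap 2 non-coding RNA genes.

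Tissue markers moved in the same interval. Of 6 muscle markers 6 were lower, of 8 intestine markers 6 were lower and 1 higher, and of 10 neuron markers 3 were higher and 1 lower. The summed intestine markers ranged from 1008 to 1267 CPM at 192 h and from 2746 to 3030 CPM at 24 h, and the summed neuron markers from 1623 to 1956 CPM at 192 h and from 1367 to 1608 CPM at 24 h. The part of these shifts in the late changes of the insulin-like genes was not tested.

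Beyond 192 h fewer genes of the family were called, 24% of the 25, which is close to the share of all genes tested. The log2 fold change was positive for 12 of the 25 genes and negative for 13. At 288 h against 192 h, 1 gene was higher and 5 lower by the edgeR quasi-likelihood test, 6 of 25 where 24.7% of all genes tested were called (7.39% higher, 17.4% lower). The split depended on the scaling: RLE gave 2 higher and 4 lower, and both upper-quartile scaling and no scaling factors gave 2 and 2. The median log2 fold change was -0.091 over the 25 genes and -0.0037 over all genes tested.

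The intestinal agonist ins-35 had 5.69, 10.6, 5.03 and 5.34 CPM at 288 h in replicates 1, 5, 6 and 8, against 14.3, 18.3, 20.6 and 21.95 CPM at 192 h (log2 fold change -1.49, SE 0.21, edgeR FDR 3.8e-07). It was the 1 gene whose call held under every alternative tried, and replicate 5 had both its highest library at 288 h and an intermediate one at 192 h. Over the same interval 5 of 8 intestine markers, 6 of 6 body wall muscle markers and 2 of 10 neuron markers were lower, and 0 of each list were higher. The part of these shifts in the changes of the insulin-like genes was not tested. The neuronal agonist daf-28 had 16.5, 12.1, 15.6 and 10.8 CPM at 288 h, against 19.2, 17.9, 22.8 and 19.0 CPM at 192 h, without overlap (log2 fold change -0.52, SE 0.18, edgeR FDR 0.0317). Its call was lost without replicate 5, 6 or 8, and under upper-quartile scaling, no scaling factors and the filter at a mean of 10 CPM.

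The gene that was higher was ins-3, with 60.5, 27.6, 51.4 and 47.9 CPM at 288 h in replicates 1, 5, 6 and 8, against 38.9, 20.3, 23.7 and 33.3 CPM at 192 h (log2 fold change 0.69, SE 0.20, edgeR FDR 0.00866). The groups overlapped because replicate 5 was low at both times, although each replicate was higher at 288 h, and the call was lost without replicate 6. ins-26 (log2 fold change -1.38, lower in 3 of 4 replicates), ins-27 (-0.76) and ins-5 (-1.20, edgeR FDR 0.0464) overlapped between the time points. The call of ins-26 was lost without replicate 1. That of ins-27 was lost without replicate 6 or 8 and under upper-quartile scaling and no scaling factors. Both were also lost in the fit of the 2 time points alone. ins-5 lost its call under 10 of 13 alternatives, those without replicate 1, 5 or 6 among them. With the replicate block 8 genes were called, which added ins-29 (log2 fold change 0.65, edgeR FDR 0.0383 with the block, 0.0655 without) and ins-28 (-0.76, 0.0305 and 0.0615). ins-20, ins-1, ins-17 and ins-18 were not called in this comparison.

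Across the early (12 h against 0 h) and late (192 h against 24 h) comparisons, 9 genes were called in both, which is 64.3% of the calls of each and 36% of the 25 genes. Of all genes tested 23.2% were called in both, which is 51.1% of the early and 58.6% of the late calls. They divide by direction. ins-3, ins-17, ins-20 and ins-28 were higher in both, ins-24, ins-27 and ins-35 were higher and then lower, ins-6 was lower and then higher, and ins-22 was lower in both. Called in the early comparison alone were ins-25, ins-29 and ins-30, which were higher, and ins-4 and ins-5, which were lower. Called in the late comparison alone were ins-1, ins-10 and ins-18, which were higher, and ins-26 and ins-37, which were lower. The 6 genes called in neither were daf-28, ins-2, ins-11, ins-14, ins-34 and ins-39, although all of them except ins-34 passed the likelihood ratio test over the 12 time points.

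Many of the genes are neighbours. Of the 40, 25 lie in 7 runs in which no more than 3 other coding genes separate a member from the next. The longest run, on chromosome I, holds 7 genes in the order ins-28, ins-29, ins-25, ins-27, ins-24, ins-30 and ins-26, and all 7 passed the filter. At 12 h against 0 h all but ins-26 were higher, where 22.2% of all genes tested were. Later they went different ways: at 192 h against 24 h ins-24, ins-26 and ins-27 were lower, ins-28 was higher, and ins-25, ins-29 and ins-30 were not called. Of all genes tested 39.7% were called there. ins-29 had its highest mean, 9.86 CPM, at 288 h, when ins-26 was at 1.07 and ins-27 at 1.83 CPM. ins-30 had its highest mean, 41.1 CPM, at 48 h. Per kb of exon, ins-27 was the most abundant gene of the run at 12 h, with 35.2 CPM per kb beside 29.5 for ins-30, and ins-30 at 192 h, with 47.2 CPM per kb beside 10.0 for ins-27.

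The second long run, on chromosome II, holds ins-2, ins-3, ins-4, ins-5, ins-6 and ins-20. ins-4, ins-5 and ins-6 were lower at 12 h than at 0 h, while ins-3 and ins-20 were higher (45.4% of all genes tested were called). At 192 h against 24 h ins-3, ins-6 and ins-20 were higher and ins-2, ins-4 and ins-5 were not called. The highest mean of ins-4 was at 2 h, that of ins-5 at 4 h and that of ins-6 at -2 h. No gene of this run was called lower at 192 h, where 20.3% of all genes tested were, and the run is too short to be read against that share.

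**Figure D4:**
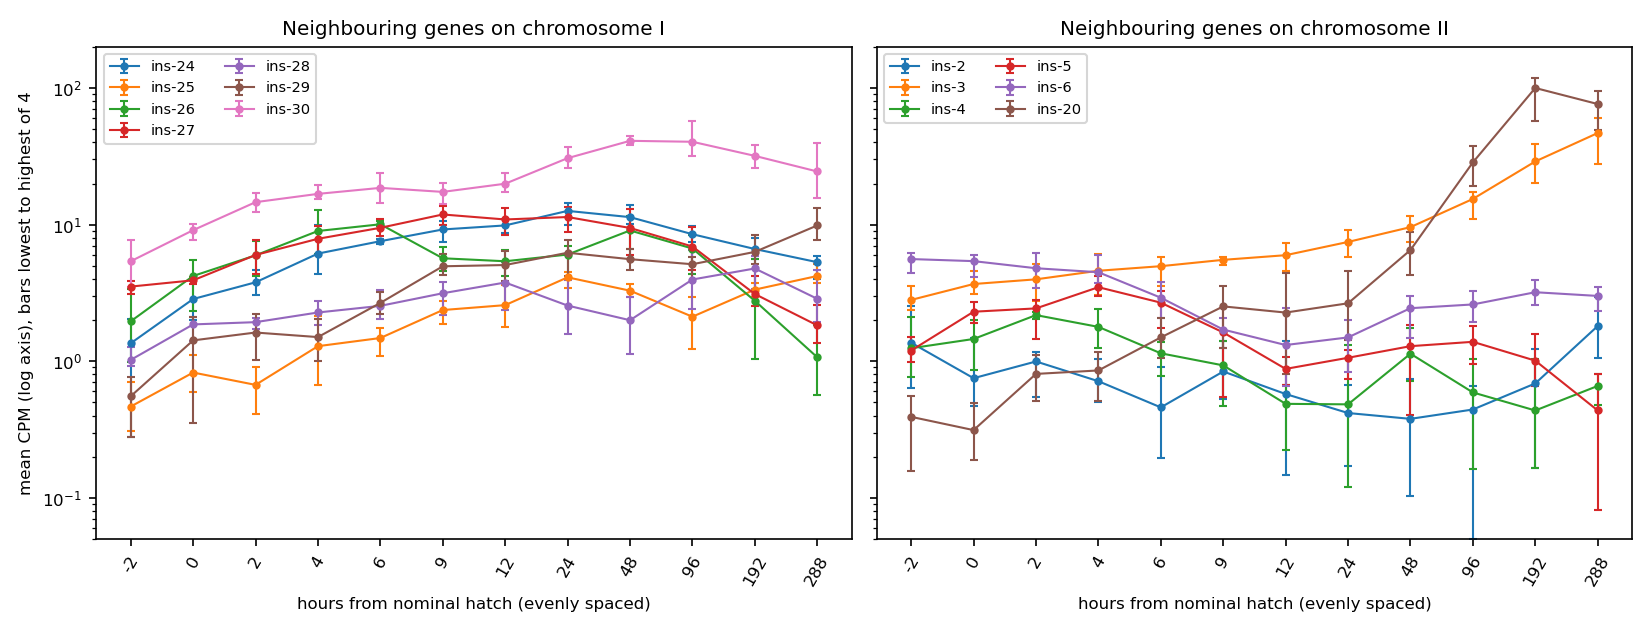
Mean CPM (log axis) by hours from nominal hatch (evenly spaced) for the run of 7 neighbouring genes on chromosome I and the run of 6 on chromosome II. Points are means of 4 libraries and bars run from the lowest to the highest library, with a value of 0 drawn at the lower edge of the axis. On chromosome II, ins-3 and ins-20 reached 46.9 and 76.5 CPM at 288 h while ins-2, ins-4 and ins-5 averaged under 2 CPM there.

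Summed over all 40 genes, the family took 110 ± 9.58 CPM at -2 h, 148 ± 16.6 at 0 h, 254 ± 25.2 at 12 h, 316 ± 29.5 at 24 h, 543 ± 77.9 at 192 h and 512 ± 93.0 at 288 h (SD, n = 4). A list of 7 genes known as agonists (daf-28, ins-3, ins-4, ins-6, ins-7, ins-33 and ins-35) and the list of 3 antagonists (ins-1, ins-17 and ins-18) were summed separately. The other genes of the family were given no role, so these sums leave out most of its members. Among those left out, ins-20 averaged 2.65 CPM at 24 h and 100.2 CPM at 192 h. The antagonists summed to 286 CPM at 192 h and 157 CPM at 24 h, which is 1.82-fold, and the agonists to 71.3 CPM at 192 h and 65.4 CPM at 24 h, which is 1.09-fold. Within the agonists, ins-3 was higher while ins-35 was lower over that interval. At -2 h the antagonists had summed to 59.9 CPM and the agonists to 22.7 CPM, so both sums were larger at 24 h than at -2 h. Of the 5 agonists tested, 2 were higher and 1 lower at 192 h than at 24 h, and all 3 antagonists were higher. Of all genes tested 39.7% were called in that comparison. At 12 h against 0 h, 2 agonists (ins-3 and ins-35) were higher and 2 (ins-4 and ins-6) lower, and of the antagonists ins-17 was higher. The share of all genes tested was 45.4% there.

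**Figure D5:**
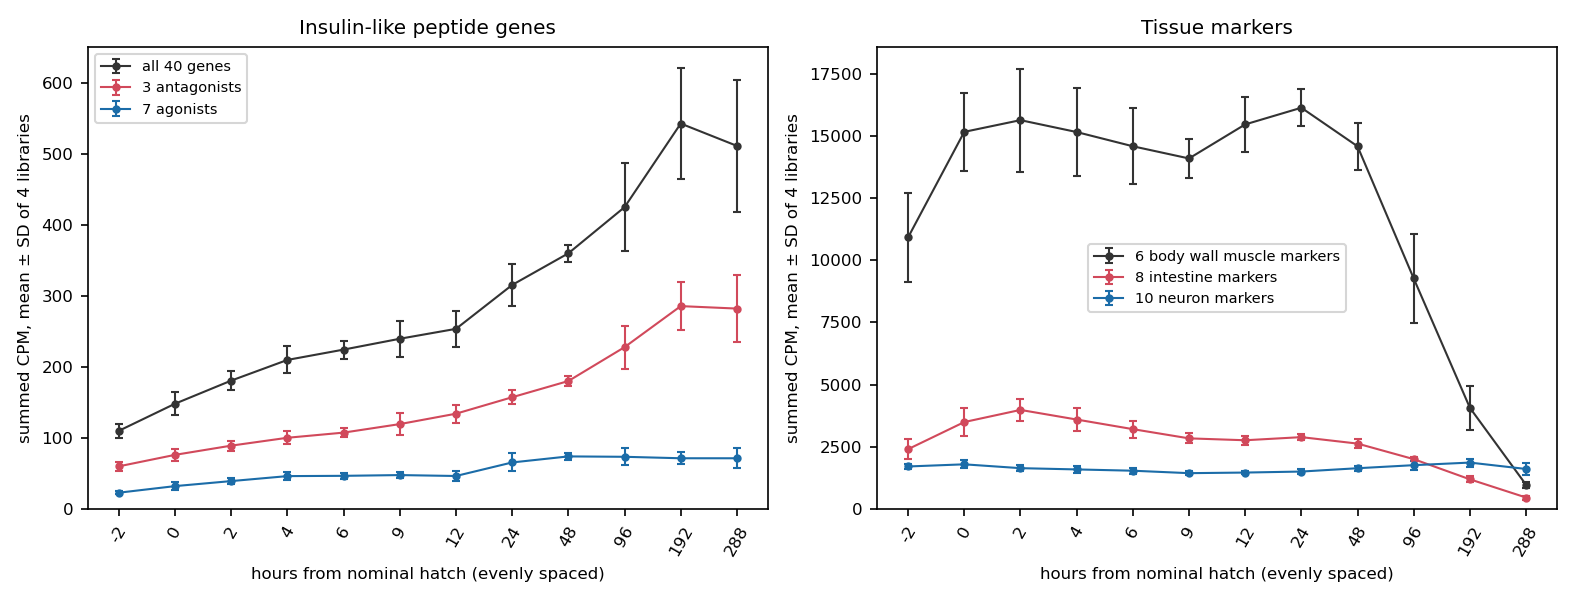
Left, summed CPM of all 40 insulin-like peptide genes, of 3 antagonists and of 7 agonists of the DAF-2 receptor. Right, summed CPM of 6 body wall muscle, 8 intestine and 10 neuron markers, by hours from nominal hatch (evenly spaced), means ± SD of 4 libraries. The sum of the antagonists was 286 CPM at 192 h and 157 CPM at 24 h, and that of the muscle markers 4061 CPM at 192 h and 16132 CPM at 24 h.

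Genes of the pathway that the peptides act on were read against the same background. A list of 10 genes from the receptor to the transcription factor (among them daf-2, ist-1, age-1, aap-1, pdk-1, akt-1, akt-2, sgk-1 and daf-16) all passed the likelihood ratio test, as did 84.9% of all genes tested. At 12 h against 0 h 6 of them were higher and 0 lower (45.4% of all genes tested were called, 22.2% higher), led by ist-1, which encodes a homologue of insulin receptor substrates (log2 fold change 1.19), aap-1, the adaptor subunit of the AGE-1 kinase (1.01), and the receptor gene daf-2 (0.87, edgeR FDR 1.89e-06). At 192 h against 24 h, where 39.7% of all genes tested were called, 7 were higher, among them daf-16 (log2 fold change 0.63, edgeR FDR 7.85e-05), and 2 were lower, among them the kinase gene pdk-1 (-0.90). At 288 h against 192 h, where 24.7% of all genes tested were called, 1 was higher and 3 were lower.

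Of 9 genes for the processing and release of peptides (egl-3, egl-21, kpc-1, bli-4, aex-5, sbt-1, ida-1, unc-31 and asna-1), 5 were higher and 2 lower at 12 h against 0 h, with the same background of 45.4%. The largest rises were those of asna-1, which promotes insulin secretion (log2 fold change 1.34, edgeR FDR 4.2e-15), egl-21, a carboxypeptidase (1.20), and egl-3, a proprotein convertase (1.19). The convertase genes bli-4 (-0.54) and aex-5 (-0.37) were lower. At 192 h against 24 h 6 of the 9 were higher and 1, aex-5, was lower (background 39.7%), and asna-1 (log2 fold change 1.20) and ida-1, a dense-core vesicle protein (1.07), led the higher genes. The dense-core vesicle release factor unc-31 was not called in either comparison, with log2 fold changes of 0.0043 and 0.32.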

How the data were processed

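The deposited values are raw read counts per gene, 1 table for each of the 48 mRNA-seq libraries, made by the authors from single-end reads, which were mapped with Bowtie (up to 2 locations per read) and assigned with HTSeq to genes of the WS210 release. The strand setting and the tool versions are not given in the sources used here. Each table ends in 5 summary entries for reads without a gene, 21.1 to 29.7% of reads, which were left out of library sizes and tests.

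Symbols, exon lengths, overlaps and gene order came from a current annotation (WBcel235) joined by sequence name. Because it is another release than that of the counts, no coordinates are given. The members, the gene lists and the comparisons were chosen with earlier results of these data known. A gene of the pathway list is not reported here by name.

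Genes with more than 1 CPM in at least 4 libraries were kept, 16987 in all. Counts were scaled with TMM in edgeR 4.0.16 (R 4.3.3), and the CPM given are counts scaled to the total of the genes tested times its TMM factor. Change over the 12 time points was tested with the likelihood ratio test and 5 pairs of time points with the quasi-likelihood F test, in a single fit that held the 48 libraries. Tests were 2-sided and adjusted over all genes tested (Benjamini-Hochberg). SE is the size of the log2 fold change over the square root of F. The common biological coefficient of variation was 0.188. Genes averaging at least 10 CPM at some time point were described singly, every member past an FDR of 0.05 in a comparison was named, and those under 1 CPM at every time point were named as such.

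Per the study's methods, replicates other than 1, whose number is not stated, each came from a single culture over time, so numbers were taken to pair libraries. Deviations from the group means of same-numbered libraries correlated with r of 0.049 to 0.644, over 0.1 in 18 of 20 pairs. No libraries of 1 time point differed by less than sampling noise. Counts carry no molecular identifiers, so a floor of 3 counts covers counting error only. Alternatives were RLE, upper-quartile and no scaling, no filter, a mean of at least 10 CPM, DESeq2 1.42.0, the other of the 2 edgeR tests, a replicate block, leaving out each replicate or the 2 libraries richest in ribosomal RNA, and fits of the compared time points alone. The fits were also run on simulated counts with a single spread for all genes and no replicate effect. Changes were placed only at 288 h and not in genes of low level, so that run does not cover genes with few counts.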

Additional observations from a re-analysis of the deposited data

Results flagged for a closer look

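In 5 of 78 groups of 4 libraries with a mean of at least 10 CPM, 1 library stood far from the other 3 by Dixon's criterion (95% level), and chance alone gives about 1 in 20 such groups. In replicate 5, the lowest library of ins-3 at 96 h had 10.96 CPM (nearest 16.34), that of ins-17 at 288 h 110.6 CPM (nearest 154.7), and that of ins-20 at 192 h 57.39 CPM (nearest 112.2). In replicate 1, ins-1 at 0 h had 21.2 CPM (nearest 27.69). In replicate 8, daf-28 at 24 h had 23.93 CPM (nearest 15.49), in a library where ribosomal RNA genes took 27.4% of the counts. Of the 5, 3 were in replicate 5.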

How the results depend on the processing

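Of 43 calls of single genes between pairs of time points, 22 held under every alternative in which the gene was tested, and no fold change of a called gene changed sign. With a mean of at least 10 CPM 8 genes remained in the test, while the shares of all genes called rose to 20.6 to 96.6%. The calls were 4 at 0 h against -2 h (8 before), 6 at 12 h against 0 h (14), 3 at 24 h against 12 h (1), 6 at 192 h against 24 h (14), 2 at 288 h against 192 h (6) and 8 over the 12 time points (23). At 0 h against -2 h, 5 were called without the 2 libraries rich in ribosomal RNA and 4 in a fit of the 2 time points alone. At 24 h against 12 h, RLE, upper-quartile scaling, the other edgeR test and the fit of the 2 time points gave 2 each, DESeq2 gave 3, and no scaling factors and leaving out the 2 ribosomal libraries gave 0. Leaving out each replicate in turn gave 3 to 7 calls at 0 h against -2 h, 12 to 13 at 12 h against 0 h, 0 to 1 at 24 h against 12 h, 10 to 14 at 192 h against 24 h, 4 at 288 h against 192 h and 21 to 23 over the 12 time points.

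With the replicate block, 11, 16, 4, 14 and 8 genes were called in the 5 comparisons in order of time and 23 over the 12 time points, where 30.1, 50.03, 14.5, 44.4, 30.1 and 89.7% of all genes were called, and it changed no calls other than those given with it above. Without scaling factors the median of all genes shifted by 0.14, -0.12, -0.22 and 0.21 in the comparisons of 0 h, 12 h, 24 h and 288 h with the earlier time point, and by 0.13 in that of 288 h with upper-quartile scaling. For the 12 genes that averaged at least 10 CPM at some time, the time of the highest mean moved in 6 of 96 refits (ins-17 and daf-28 without scaling, ins-30 without replicate 1 or 5, ins-35 without replicate 8 or the 2 ribosomal libraries). Depth limits the 15 untested genes, at most 19 counts in a library.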

Other observations

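Of 5 vitellogenin genes, which adults use to make yolk, 2 passed the filter. vit-6 averaged 2.31 CPM at 24 h, 9.45 CPM at 192 h and 30.4 CPM at 288 h, and vit-2 averaged 1.26, 1.72 and 5.69 CPM at those times. Both were higher at 288 h than at 192 h by the edgeR quasi-likelihood test, and the other 3 never averaged 1 CPM.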
